A study of Mus musculus with 6 samples.

Results

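Sphingosine 1-phosphate (S1P) and lysophosphatidic acid (LPA) are small lipids that signal through receptors on the cell surface. The genes described here encode 4 S1P receptors (S1pr1, S1pr2, S1pr3 and S1pr5), 3 LPA receptors (Lpar1, Lpar4 and Lpar6), both sphingosine kinases that make S1P (Sphk1 and Sphk2) and the lyase that breaks it down irreversibly (Sgpl1). They were taken by symbol, and all 10 were found among the 19937 genes measured. A transcript cluster is a group of probes that covers 1 transcribed region. For a gene with several clusters the one to use was selected on its mean over the 6 arrays, the highest being taken, but each of these 10 genes had a single cluster, so that measured value decided nothing here. The gene group itself was proposed with the treatment comparison known, and its counts below are a description and no independent evidence.

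The arrays measured RNA of primary neurospheres, the floating colonies that precursor cells form in culture. The sample titles of both groups name small neurospheres. They were grown from the hippocampus of adult male C57BL/6J mice that were 8 to 12 weeks old. All cultures held EGF and bFGF, and they were grown with either 10 µM norepinephrine (N, 3 arrays) or 15 mM potassium chloride (K, 3 arrays) and collected on day 14. The labels name no genetic change in either group, and no untreated neurospheres are among the arrays, so a difference between N and K may come from either treatment. The labels call the samples of each group biological replicates and do not say whether mice were pooled.

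S1P receptors and LPA receptors are G protein-coupled. The S1pr1 protein signals mainly through Gi, while the S1pr2 and S1pr3 proteins also couple to Gq and to the G proteins encoded by Gna12 and Gna13. In brain, S1pr1 and S1pr3 are well known from astrocytes, S1pr5 from oligodendrocytes, and Lpar1 from precursor cells and oligodendrocytes. The Lpar4 and Lpar6 proteins resemble purinergic receptors more than they resemble the Lpar1 protein.

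Norepinephrine can act through cAMP and potassium chloride through calcium entry, and both routes reach factors that bind the cAMP response element (CRE) and the AP-1 site. The stretch before the transcription start is therefore shown for S1pr3, the gene with the largest difference in the group, and for S1pr2, the S1P receptor gene with the lowest log2FC. Each line holds the 250 bases before the start, 5′ to 3′ on the strand of the gene, from the RefSeq promoter table on GRCm38.p6. The S1pr3 stretch lies at chr13:51408368-51408617 on the plus strand and the S1pr2 stretch at chr9:20976794-20977043 on the minus strand. Capitals mark matches to a CRE (TGACGTCA), its 5-base core (TGACG), an AP-1 site (TGANTCA) or a GC box (GGGCGG), searched on both strands.
S1pr3: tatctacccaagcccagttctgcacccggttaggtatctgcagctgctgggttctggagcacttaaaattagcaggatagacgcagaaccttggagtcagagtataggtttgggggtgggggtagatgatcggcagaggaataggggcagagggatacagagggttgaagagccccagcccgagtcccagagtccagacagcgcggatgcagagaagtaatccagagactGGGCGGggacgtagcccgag
S1pr2: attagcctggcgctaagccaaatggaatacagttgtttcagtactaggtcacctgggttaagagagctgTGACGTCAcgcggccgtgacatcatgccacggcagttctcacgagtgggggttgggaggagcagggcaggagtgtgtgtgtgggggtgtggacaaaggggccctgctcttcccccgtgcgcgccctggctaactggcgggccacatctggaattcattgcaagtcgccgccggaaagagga

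The S1pr2 stretch held 1 full CRE, from base 181 to base 174 before the start, and since the CRE is a palindrome it also counts as 2 overlapping cores. The S1pr3 stretch held 1 GC box, from base 20 to base 15 before the start, and no match to the other 3 motifs. Of the 32851 windows of this length in the table, 1.55% held a full CRE, 17.77% a CRE core, 6.75% an AP-1 site and 32.74% a GC box. Windows were found for 9 of the 10 genes, 16 windows in all because some genes have several starts, and the gene without one was S1pr1. Of these 16 windows 1, that of S1pr2, held a full CRE, 4 a CRE core, 2 an AP-1 site and 8 a GC box. Windows of the same gene can overlap, and both windows with an AP-1 site were overlapping windows of Sphk1. Counted by gene, 1 held a full CRE, 3 a CRE core, 1 an AP-1 site and 6 a GC box. These matches describe letters in the windows and say nothing about binding.

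S1pr3 and S1pr1 were the genes of the group with the clearest separation between treatments, and both averaged higher with N. Over the fit of all genes, 0 of the 10 passed at an adjusted p under 0.05 from limma, where 0.155% of all genes tested did. At an unadjusted P under 0.05 there were 2, S1pr3 and S1pr1, or 2 of 10, where 8.54% of all genes reached it, and an ordinary linear model without moderation gave the same counts, 0 and 2. The same 2 genes were the only members whose N and K arrays did not overlap, a pattern that 13.3% of all genes showed. All N arrays lay above all K arrays for 5.78% of all genes, as for these 2, and below them for 7.55%, as for none of the 10. The members are too few for these shares to be told apart. Leaving out K replicate 3, the array that correlated least with the others of its group, left both counts at 2. In bulk RNA a change in the share of cells that express a gene and a change in the RNA per cell cannot be told apart.

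**Figure D1:**
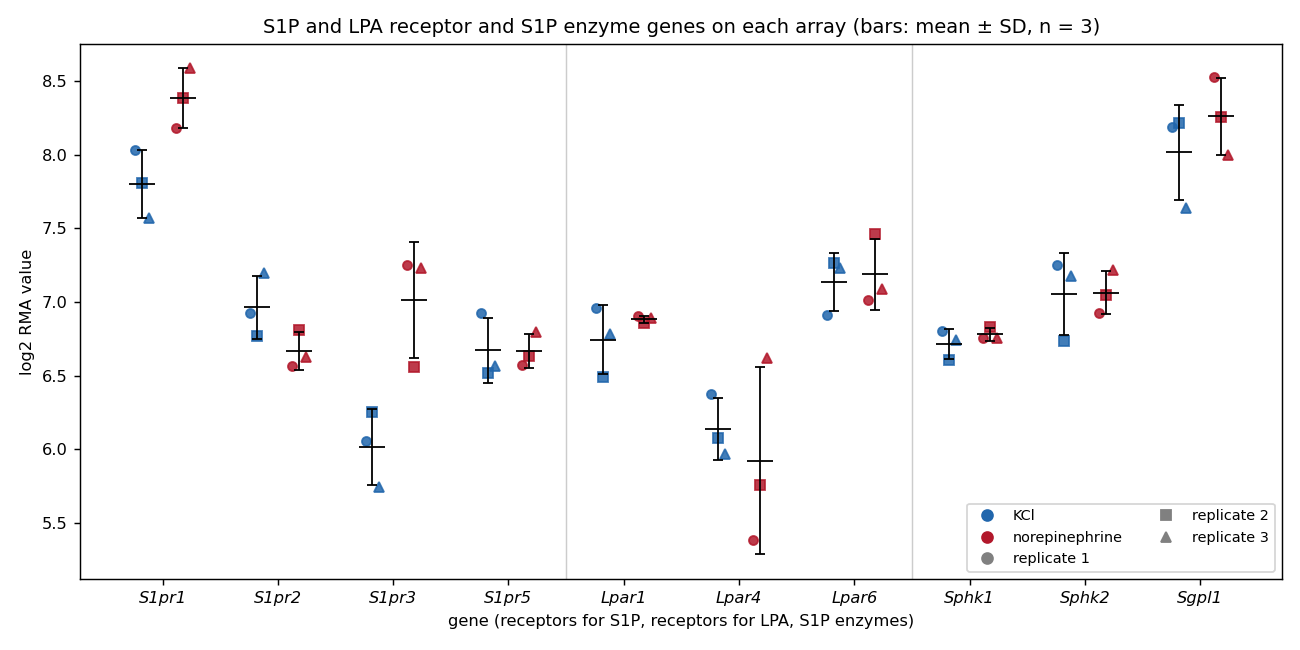
Log2 RMA values (vertical axis) of the 10 genes on each array, blue for K and red for N, with a marker shape for each replicate number and bars for mean ± SD (n = 3). The N arrays of S1pr1 (8.18 to 8.59) and of S1pr3 (6.56 to 7.25) all lie above the K arrays, and the groups overlap for the other 8 genes.

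The S1pr3 values, on the log2 scale of robust multi-array average (RMA) summaries, were 7.25, 6.56 and 7.23 on N replicates 1, 2 and 3 and 6.06, 6.25 and 5.74 on K replicates 1, 2 and 3. All N arrays lay above all K arrays, with N replicate 2 and K replicate 2 nearest to each other. The means were 7.01 ± 0.40 with N and 6.02 ± 0.26 with K (SD, n = 3 each). The log2FC of N minus K was 0.996 (standard error 0.22, 95% interval 0.51 to 1.49), a 1.99-fold higher level with N (1.42 to 2.80), and it did not pass over all genes tested (adjusted p = 0.201 from limma). By size of log2FC the gene ranked 104 among all genes and by P it ranked 138. The study's positive set asks for a log2FC above 1 or below -1 with P under 0.05. With the P from limma here, 0.492% of all genes and 0 of these 10 met this rule. S1pr3 missed it by the log2FC alone. After quantile normalization, centring each array on its median or cyclic loess normalization its log2FC was 1.02, 1.02 and 1.03, which is past that threshold. Without K replicate 3 it was 0.86 and without N replicate 2 it was 1.22. S1pr3 lies on chromosome 13 from 51408618 to 51422797 (GRCm38.p6), where a long noncoding RNA gene on the other strand, Gm32834, overlaps it.

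For S1pr1, which encodes the receptor through which S1P guides the movement of lymphocytes and endothelial cells, the arrays read 8.18, 8.38 and 8.59 with N and 8.03, 7.81 and 7.57 with K. The lowest N array stood 0.15 above the highest K array, a smaller gap than the spread within either group. Means were 8.38 ± 0.20 with N and 7.80 ± 0.23 with K (SD, n = 3 each), and the log2FC was 0.58 (standard error 0.16, 95% interval 0.21 to 0.95). This is a 1.49-fold higher level with N and did not pass over all genes (adjusted p = 0.335 from limma, rank 385 by P). Without K replicate 3 the log2FC was 0.46, and leaving out any other array gave 0.48 to 0.69. The gene lies on chromosome 3 from 115710433 to 115715055.

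S1pr2, whose protein is known to restrain cell migration, had the lowest log2FC of the 10 genes. Its values were 6.57, 6.81 and 6.62 with N and 6.92, 6.77 and 7.19 with K, so that N replicate 2 lay just above K replicate 2 and the groups overlapped. The log2FC was -0.30 (standard error 0.15, 95% interval -0.63 to 0.04, adjusted p = 0.639 from limma). Without K replicate 3 it was -0.18, and that of Lpar4 was then lower, at -0.30. Without K replicate 2 it was -0.39, with an unadjusted P of 0.0307 and an adjusted p of 0.300 from limma in that fit. The fourth S1P receptor gene, S1pr5, read 6.57, 6.64 and 6.79 with N and 6.92, 6.52 and 6.57 with K, with equal means of 6.67 in both groups. For S1pr5 the 95% interval of the log2FC ran from -0.34 to 0.33, which leaves room for a difference of up to 1.26-fold either way. S1pr2 and S1pr5 both lie on chromosome 9, from 20965952 to 20976793 and from 21242917 to 21248443.

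**Figure D2:**
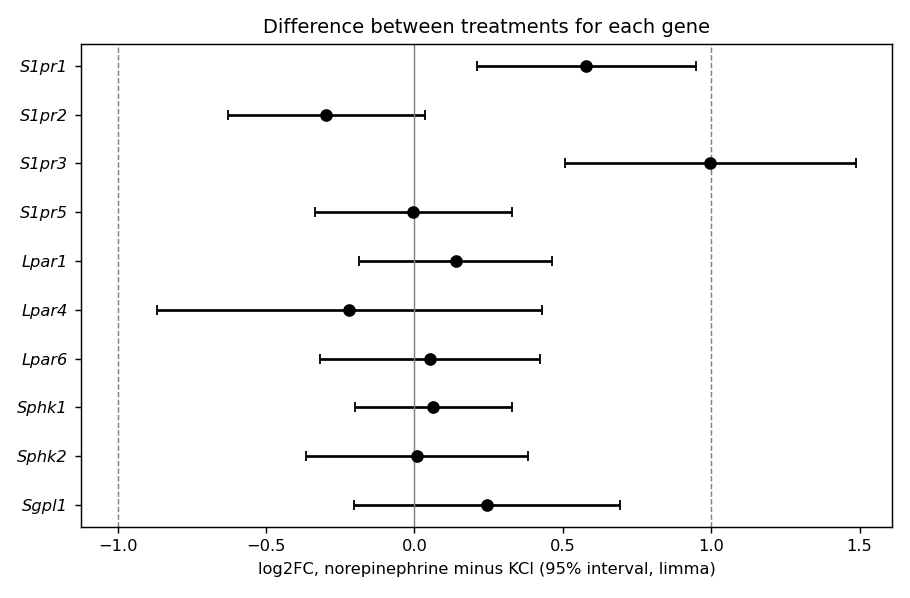
Log2FC of N minus K (horizontal axis) with its 95% interval from limma for each of the 10 genes, with dashed lines at 1 in size. The intervals of S1pr1 (0.21 to 0.95) and S1pr3 (0.51 to 1.49) exclude 0, and those of the other 8 genes include it.

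The LPA receptor genes did not separate the treatments. Lpar1, the gene of the first LPA receptor to be identified, read 6.90, 6.86 and 6.89 with N and 6.96, 6.49 and 6.78 with K. The N arrays lay inside the range of the K arrays, and the log2FC was 0.14 (95% interval -0.19 to 0.46). It was 0.01 without K replicate 2 and 0.25 without K replicate 1. Lpar4 read 5.38, 5.75 and 6.62 with N and 6.37, 6.07 and 5.97 with K. It had the widest spread of the group, 0.63 (SD) over the N arrays against 0.21 over the K arrays, and N replicate 3 alone lay above every K array. Its log2FC was -0.22 (95% interval -0.87 to 0.43) and -0.57 without N replicate 3, with an unadjusted P of 0.0157 and an adjusted p of 0.571 from limma in that fit. Without N replicate 1 it was 0.05, so its sign rests on single arrays. Lpar4 was the only one of the 10 genes with a mean (6.03) below the median of all clusters, 6.34. Lpar6 read 7.01, 7.46 and 7.09 with N and 6.91, 7.27 and 7.23 with K, a log2FC of 0.05 (95% interval -0.32 to 0.42). Lpar6, on chromosome 14 from 73237891 to 73240358, lies within the span of the tumour suppressor gene Rb1 (73192858 to 73325951). Rb1 has a cluster of its own, with a log2FC of 0.27 (standard error 0.12, adjusted p = 0.604 from limma). The positions of the probes were not used here, so a part of the Lpar6 signal from Rb1 transcripts was not tested.

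The genes of S1P synthesis and breakdown also overlapped between treatments. Sphk1, the sphingosine kinase that growth factors activate at the plasma membrane, varied least, with 6.75, 6.83 and 6.76 with N and 6.80, 6.60 and 6.74 with K. Its log2FC of 0.06 had a 95% interval of -0.20 to 0.33, and it was 0.01 without K replicate 2 and 0.11 without K replicate 1. Sphk2, the kinase found in nuclei and mitochondria, read 6.92, 7.05 and 7.22 with N and 7.25, 6.74 and 7.18 with K, with a log2FC of 0.01 and an interval of -0.37 to 0.38. Sphk2 overlaps the genes Dbp and Rpl18 on the other strand at its ends. Sgpl1, the S1P lyase gene, read 8.52, 8.26 and 8.00 with N and 8.19, 8.22 and 7.64 with K. Its mean was higher with N by a log2FC of 0.25 (95% interval -0.20 to 0.69, adjusted p = 0.798 from limma), and this was 0.06 without K replicate 3, the lowest array. For both kinases the intervals exclude a difference of 1.5-fold, while the interval of Sgpl1 reaches 1.62-fold higher with N.

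The study's rule for unchanged genes is a log2FC under 0.1 in size with an unadjusted P over 0.1. With the P from limma here, 4 of the 10 genes met it, S1pr5, Sphk1, Sphk2 and Lpar6, where 41.7% of all genes did. The genes of the study's own positive and negative sets were not compared. Of the 10 genes 7 had a log2FC above 0, where 43.0% of all genes did, and the median log2FC was 0.06, where the median of all genes was -0.03.

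The other genes of the S1P and LPA pathway were described from 6 lists with 42 genes, of which 39 were measured by a cluster of their own. At an adjusted p under 0.05 from limma 0 of the 39 passed, and at an unadjusted P under 0.05 there were 5, of which 3 had the higher mean under N and 2 under K. Over all genes, 4.64% reached this with the higher mean under N and 3.89% with the higher mean under K. The largest difference was that of Liph, which encodes a lipase that makes LPA from phosphatidic acid. Liph read 7.22, 7.17 and 7.65 with N and 6.46, 6.35 and 6.13 with K, a log2FC of 1.03 (standard error 0.16). With the P from limma here Liph met the study's positive rule, and it did not pass over all genes (adjusted p = 0.0759 from limma). Its N arrays all lay above its K arrays, and without K replicate 3 the log2FC was 0.94. Pla1a, the other measured gene of the list drawn up for LPA production, had a log2FC of -0.05. Enpp2, which encodes autotaxin, the main enzyme of LPA production, was not analysed here, nor were Lpar5 and Cers1.

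Among 18 genes of ceramide and sphingosine turnover, 3 had an unadjusted P under 0.05, where 8.54% of all genes did. Of these 3, 2 had the higher mean under N and 1 under K. The median log2FC of the 18 genes was 0.05. Smpd1, the acid sphingomyelinase gene, whose product releases ceramide in lysosomes, read 8.78, 8.76 and 8.96 with N and 8.26, 8.10 and 7.95 with K. Its log2FC was 0.73 (standard error 0.13, adjusted p = 0.116 from limma), with no overlap between the groups. Sptlc1, a subunit gene of the enzyme that starts sphingolipid synthesis, had a log2FC of 0.44 (standard error 0.15, adjusted p = 0.471). Cers2, a ceramide synthase gene, had -0.47 (standard error 0.21, adjusted p = 0.579), and without K replicate 3 this was -0.24. Of 6 genes in the breakdown pathways of lipid phosphates, 4 had a log2FC below 0, with a median of -0.17. Plpp2, a lipid phosphate phosphatase gene, had the smallest P of these (log2FC -0.20, adjusted p = 0.710 from limma). The exporter gene Spns2, Mfsd2b and Apom, which encodes the S1P carrier of plasma, had log2FC of -0.09, -0.07 and -0.15. S1pr4, Lpar2 and Lpar3, the other receptor genes measured, had log2FC of -0.08, 0.001 and -0.02, with adjusted p from 0.900 to 0.998.

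Among 7 genes for G protein alpha subunits that these receptors use, the median log2FC was -0.10. Gna12, which the S1pr2 and S1pr3 proteins can couple to, had all N arrays below all K arrays, with a log2FC of -0.37 (standard error 0.14, adjusted p = 0.515 from limma). Gnai1, which encodes a Gi alpha subunit, had all N arrays above all K arrays, with a log2FC of 0.26 (standard error 0.13, adjusted p = 0.639). The groups overlapped for the other 5, and over all genes 13.3% did not overlap.

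**Figure D3:**
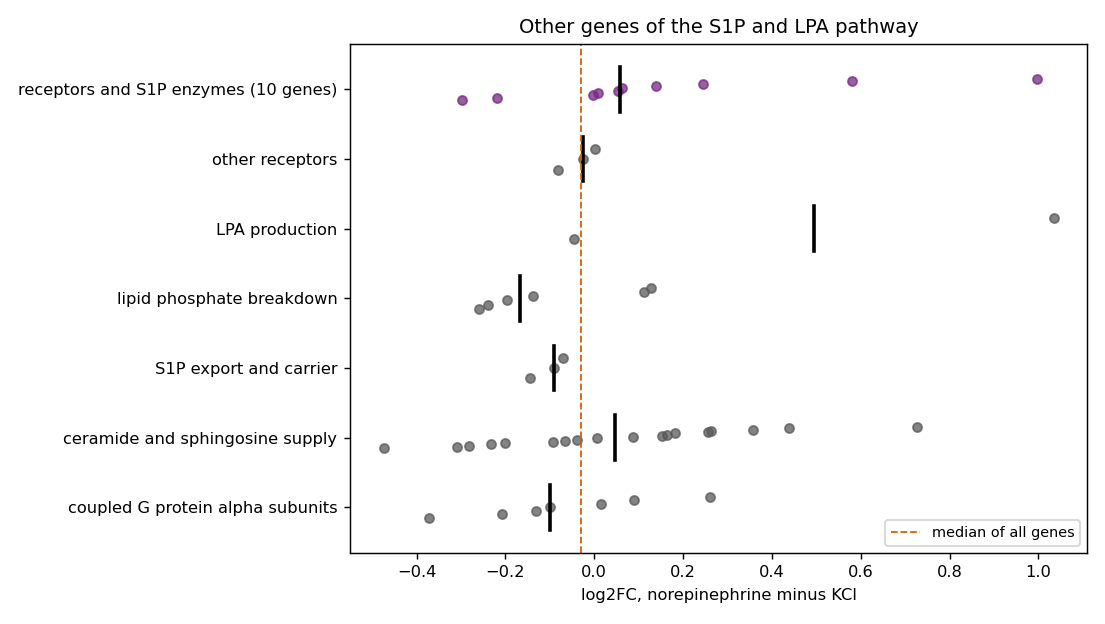
Points give the log2FC of N minus K on the horizontal axis, first for the 10 genes and then for the measured genes of the 6 pathway lists. Black bars are list medians and the dashed line is the median of all genes, -0.03. Liph (1.03) and Smpd1 (0.73) stand furthest to the right among the lists, and S1pr3 and S1pr1 among the 10 genes.

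Most astrocyte markers had log2FC of the same sign as S1pr1 and S1pr3. Of 10 astrocyte marker genes 9 had a log2FC above 0, with a median of 0.37, and 6 had all N arrays above all K arrays. Over all genes, 43.0% had a log2FC above 0 and 5.78% had all N arrays above all K arrays. The exception was S100b, a calcium-binding protein gene, with a log2FC of -0.47 (standard error 0.30, adjusted p = 0.743 from limma) that was -0.76 without K replicate 3. Gfap, the astrocyte intermediate filament gene, had 8.14 ± 0.34 with N and 6.48 ± 0.30 with K (SD, n = 3 each), and its log2FC of 1.66 passed over all genes (adjusted p = 0.0358 from limma). With any 1 array left out Gfap had a log2FC of 1.46 to 1.81 and did not pass (adjusted p from 0.0611, without K replicate 3, to 0.145, without K replicate 1, from limma). With all 6 arrays it also missed the threshold after quantile normalization (adjusted p = 0.0516 from limma), cyclic loess (0.0517) or centring of the arrays (0.0590), with all clusters tested (0.302) and in an ordinary linear model (0.486). The water channel gene Aqp4 had a log2FC of 1.56 (adjusted p = 0.0738). The summed level of the 10 markers, as log2 of summed linear values, ran from 12.60 to 12.82 on the N arrays and from 12.22 to 12.33 on the K arrays. Among the N arrays both this sum and S1pr3 were lowest on replicate 2, while S1pr1 was lowest on replicate 1. Among the K arrays all 3 were lowest on replicate 3. So was the summed level of the neural precursor markers described below (13.41). The sums of the remaining marker lists were lowest on K replicate 2. The part of the astrocyte markers in the S1pr1 and S1pr3 values was not tested. Nor was it tested whether astrocytes or other cells of the neurospheres, such as precursors, expressed these markers.

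**Figure D4:**
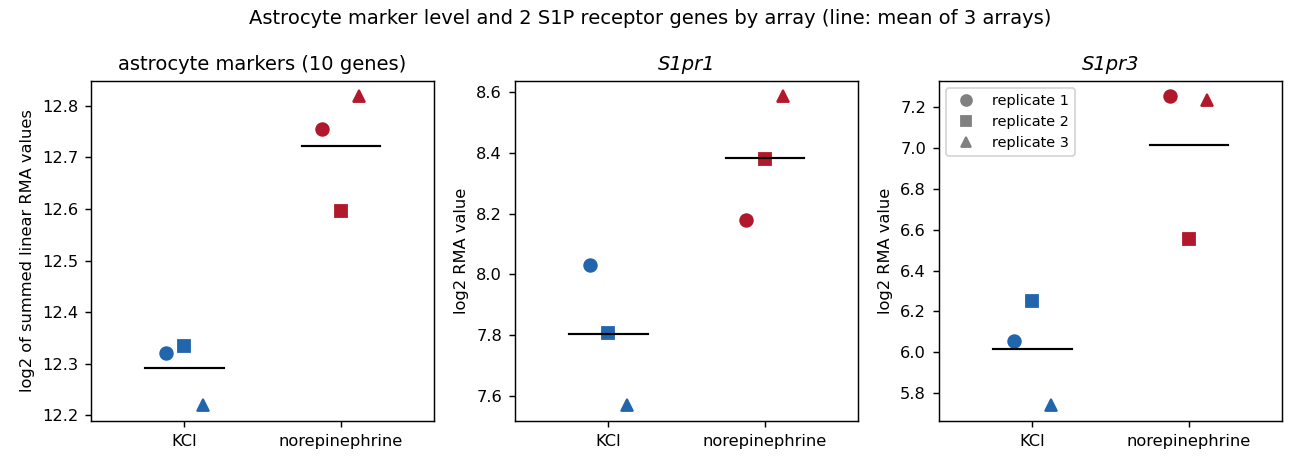
Summed astrocyte marker level (left panel, log2 of summed linear values of 10 genes) and log2 RMA values of S1pr1 and S1pr3 (middle and right panels) on the K arrays in blue and the N arrays in red, with a line at the mean of 3 arrays. In each panel all N arrays lie above all K arrays, and the vertical axes do not start at 0.

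The marker lists of the other cell types had median log2FC nearer to 0 than the astrocyte list. For 11 oligodendrocyte lineage genes the median log2FC was -0.13, with Olig1 at -0.25 and Cspg4 at -0.31, neither passing, and the summed levels overlapped (11.42 to 11.57 with N and 11.54 to 11.70 with K). All 8 endothelial markers had means below the median of all clusters, and their log2FC ran from -0.25 for Tek to 0.05, with Esam at -0.09. Among 8 microglial markers the median was -0.16, with Itgam at -0.31 and C1qb at -0.30, and 1 of the 8 had a mean above the median of all clusters. The 7 pericyte and fibroblast markers had a median of 0.12, with Kcnj8 at 0.37 and Dcn at 0.15. Among 7 neuron and neuroblast markers the median was -0.07, with Snap25 at 0.81 and Tubb3 at 0.47. Of 8 precursor markers 7 had means above the median of all clusters. So did 9 of the 10 astrocyte markers, 9 of the 11 oligodendrocyte lineage markers and 11218 of all 19937 genes. This level therefore does not single out precursors. The median log2FC of the precursor markers was 0.03, with Vim at 0.44 and Prom1 at 0.40, both with all N arrays above all K arrays. Nes, which encodes nestin, the intermediate filament protein of neural precursors, had the largest log2FC of that list by size and the opposite sign, -0.53 (standard error 0.16, adjusted p = 0.390 from limma), with all N arrays below all K arrays. In the other lists of this paragraph, all N arrays lay above all K arrays for Kcnj8, Snap25 and Tubb3, and below them for Olig1. Over all genes these patterns had shares of 5.78% and 7.55%. Gfap was the only gene of these 7 lists at an adjusted p under 0.05 from limma.

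The genes whose pattern over the 6 arrays lay nearest to that of S1pr3, by Euclidean distance between values centred on each gene's own mean, were Slco1c1, Bcap29, Ipp, Phyh and S100a16. Slco1c1, a thyroid hormone and organic anion transporter gene, was nearest, at a distance of 0.25 log2 units, and S100a16 was the fifth, at 0.44. Slco1c1 read 8.22, 7.51 and 7.91 with N and 6.87, 7.12 and 6.69 with K. Like S1pr3, it had replicate 2 lowest among the N arrays and highest among the K arrays, which its choice by distance favours. Of the 5, Phyh, which encodes an enzyme of peroxisomal fatty acid oxidation, had the largest log2FC, 1.01, and S100a16 had the smallest adjusted p, 0.0541 from limma. Distances over 6 arrays are set largely by the difference between the groups and are given as a description.

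**Figure D5:**
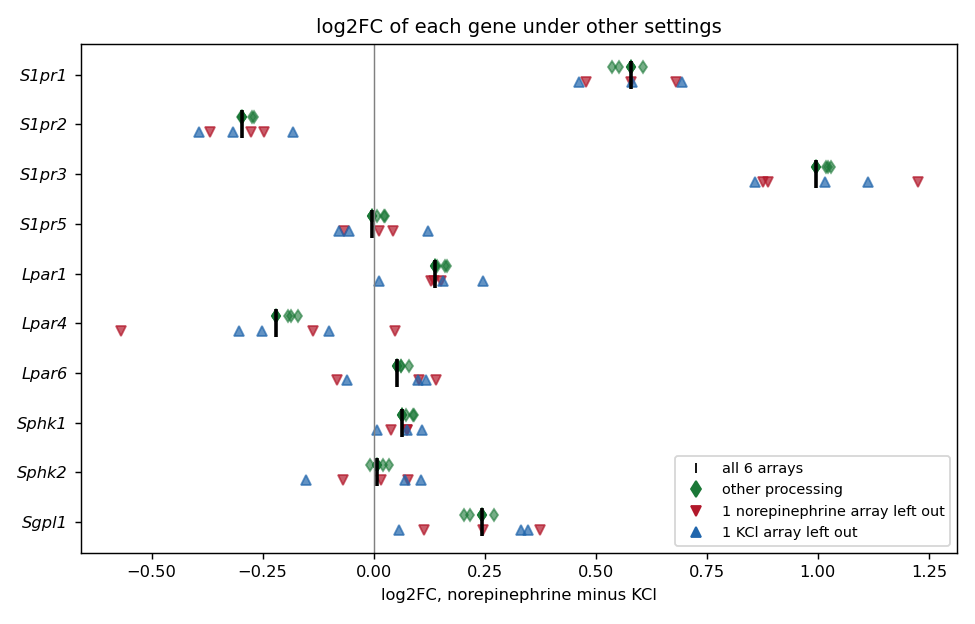
Log2FC of N minus K (horizontal axis) of the 10 genes with all 6 arrays (black bars), under other processing (green diamonds) and with 1 N array (red) or 1 K array (blue) left out. S1pr3 stays between 0.86 and 1.22 and S1pr1 between 0.46 and 0.69, while Lpar4 runs from -0.57 to 0.05.

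Over all clusters, the mean correlation of an array with the others of its group was lowest for K replicate 3 (r = 0.948). K replicate 2 was nearer to the N arrays (mean r of 0.969) than to the rest of its own group (0.954), and K replicate 1 was about as near to either (0.955 and 0.954). In the comparison of all genes 31 passed at an adjusted p under 0.05 from limma.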

How the data were processed

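The deposited values are log2 RMA values. Per the labels and the paper, the authors hybridised cDNA to Affymetrix whole-transcript mouse gene arrays, took the scans into Partek and summarised them with RMA, which corrects background, normalizes between arrays and gives 1 log2 value per transcript cluster; versions are not given in the sources used here. Groups follow the sample titles. The 34760 clusters were named by the platform annotation; the 21640 with exactly 1 symbol were reduced to 19937 genes by the highest mean over all arrays. No filter on dim clusters was applied. Coordinates come from RefSeq on GRCm38.p6, where all 10 genes were found by gene ID.

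N and K were compared over all genes by limma 3.58.1 under R 4.3.3 (functions lmFit and eBayes, no covariate, 4 residual and 4.59 prior degrees of freedom), with Benjamini-Hochberg adjustment over all genes. The fit was tested on simulated data. The limma P-values test the N minus K difference against the spread between arrays within the groups, moderated over all genes. With 3 arrays per group the precision is limited. Array data give no counting depth. Named genes were the 10 genes, genes of each pathway list with an unadjusted P under 0.05 or else its smallest P, the 2 smallest P of each marker list, and the 5 patterns nearest to the member with the smallest P. Other genes were named, after their values were seen, to complete a count or because they overlap one of the 10 genes. The genes, the lists and the rule were chosen with earlier results of these data known, and some further pathway genes chosen with them are not reported here. In all, 15 alternatives were tried. Plots were made by matplotlib 3.10.9 under Python 3.11.15.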

Additional observations from a re-analysis of the deposited data

How the results depend on the processing

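At an adjusted p under 0.05 the 10 genes gave 0 calls in all 15 alternatives, in 1 of which (genes with a mean above the median of all clusters) Lpar4 was not tested, and S1pr3 and S1pr1 kept an unadjusted P under 0.05 and their direction in all 15. The log2FC of S1pr5, near 0, changed sign to 0.0076 with quantile normalization, 0.023 with centred arrays and 0.025 with cyclic loess, and ran from -0.079 to 0.123 with 1 array left out. That of Sphk2 was -0.0082 with quantile normalization and -0.15 to 0.11 with 1 array left out. Lpar4 ran from -0.57 to 0.049 and Lpar6 from -0.083 to 0.14 with 1 array left out. Members without overlap numbered 3 with centred arrays and 2 to 5 with 1 array left out. They numbered 4 without N replicate 3 and 5 without K replicate 1, where fewer arrays make overlap less likely. The share of all genes without overlap was not counted in these settings, so these counts cannot be set against it. Over all genes, 31 calls became 1 in an ordinary linear model, 12 with quantile normalization, 12 with cyclic loess, 3 with centred arrays and 0 with all clusters tested, and 0 to 21 with 1 array left out; K replicate 1 and N replicates 1 and 2 each took it to 0, and it was 4 without N replicate 3 and 9 without K replicate 3. Genes at an unadjusted P under 0.05 ran from 1251 to 2912, the latter without K replicate 2. The cause of these shifts was not tested. With the replicate number as a block, 41 genes passed, S1pr3 had an adjusted p = 0.200 and S1pr1 0.351 from limma. The numbers are not known to pair the arrays: same-numbered arrays deviated together with r = 0.04, 0.04 and 0.12 over genes, and not every array correlated best with its own number.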
